A study of Mus musculus with 6 samples.

Results

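The genes described here are 10 genes of striated muscle that respond to mechanical load and stress: Nppb, Ankrd1, Ankrd2, Xirp1, Xirp2, Csrp3, Fhl1, Fhl2, Acta1 and Rcan1. They were taken by gene symbol, with every probe that the platform annotation pairs with one of these symbols. That gave 19 of 45281 probes, for 9 of the 19057 named genes. The annotation pairs no probe with Xirp1, which was not analysed here. Of the 19 probes, 17 were detected on at least 1 array.

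Expression was measured on 6 Illumina bead arrays of male mice, as labelled, of mixed strain background, either wild type (WT) or lacking miR-214 (KO). The 3 settings were heart at postnatal day 14 (P14), heart at 8 weeks (adult heart) and, also at 8 weeks, tibialis anterior, a limb muscle of mostly fast fibres. Each setting had 1 WT and 1 KO array, each made from material of 3 mice pooled, so no genotype difference within a setting has a replicate check. The sources used here do not say how the KO allele was made or in which cells it acts. The study compared KO with WT in each setting.

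Muscle cells sense stretch at the Z disc, where the thin filaments of neighbouring sarcomeres are anchored, at the spring region of titin between Z disc and thick filament, and at the intercalated disc or the tendon junction, where force leaves the cell. Proteins that sit at these places also enter the nucleus or alter signalling when load rises. In the heart, genes such as Nppb, Ankrd1 and Acta1 are classic markers of pressure overload and failure, and in limb muscle Ankrd1, Ankrd2, Csrp3 and the Xin proteins respond to exercise, injury and denervation.

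MiR-214 is a microRNA made from the Dnm3 locus of mouse chromosome 1. Its mature sequences (RefSeq, GRCm38.p6) are printed to show what the KO mice lack, with the seed, bases 2 to 8, in capitals. They lie on the plus strand at chr1:162223438-162223459 for the 3p arm and chr1:162223397-162223418 for the 5p arm.
mmu-miR-214-3p: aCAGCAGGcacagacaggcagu
mmu-miR-214-5p: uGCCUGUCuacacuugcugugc

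Promoters are printed for the 4 genes on which the results turn, namely Ankrd1, Xirp2, Acta1 and Rcan1. Each window runs from 250 bases before to 50 after the start site in the RefSeq table of GRCm38.p6, which held a promoter for 9 of the 10 genes. Both strands were searched for MCAT, the motif of TEAD factors, spelled CATTCC. The other motifs were the GATA motif (its name is its letters), the TATA box spelled TATAAA, the E box spelled CANNTG, the CArG box of serum response factor and the MEF2 site. The NFAT core, spelled GGAAA, was added after the data were seen. The motifs in capitals do not overlap each other.
Ankrd1, chr19:36119795-36120094, minus strand, MCAT in capitals: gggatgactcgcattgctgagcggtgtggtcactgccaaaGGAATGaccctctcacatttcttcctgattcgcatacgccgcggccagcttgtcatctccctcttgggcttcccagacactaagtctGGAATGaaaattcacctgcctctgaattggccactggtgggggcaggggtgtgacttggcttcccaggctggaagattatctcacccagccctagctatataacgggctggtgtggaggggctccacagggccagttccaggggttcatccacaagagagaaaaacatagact
Xirp2, chr2:67445752-67446051, plus strand, MEF2 site in capitals: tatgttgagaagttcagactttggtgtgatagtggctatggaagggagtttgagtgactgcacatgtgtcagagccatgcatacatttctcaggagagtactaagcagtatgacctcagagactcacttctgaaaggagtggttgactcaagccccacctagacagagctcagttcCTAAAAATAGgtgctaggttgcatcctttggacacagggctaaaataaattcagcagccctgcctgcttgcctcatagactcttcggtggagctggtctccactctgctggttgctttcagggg
Acta1, chr8:123894726-123895025, minus strand, CArG box, MCAT and TATA box in capitals: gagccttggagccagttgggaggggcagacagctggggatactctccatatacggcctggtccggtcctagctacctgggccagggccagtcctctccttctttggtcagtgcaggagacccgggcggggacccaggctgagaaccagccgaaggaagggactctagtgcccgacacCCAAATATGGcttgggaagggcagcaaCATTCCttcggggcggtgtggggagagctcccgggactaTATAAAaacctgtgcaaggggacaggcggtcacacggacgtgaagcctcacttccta
Rcan1, inner start site, chr16:92400029-92400328, minus strand, NFAT core in capitals: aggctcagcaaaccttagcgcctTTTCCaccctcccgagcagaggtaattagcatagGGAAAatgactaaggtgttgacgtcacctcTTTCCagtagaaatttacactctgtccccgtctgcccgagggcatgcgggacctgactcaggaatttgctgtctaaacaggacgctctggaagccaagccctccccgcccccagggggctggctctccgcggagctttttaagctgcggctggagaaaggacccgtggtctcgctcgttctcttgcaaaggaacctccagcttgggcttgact

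The Ankrd1 window holds MCAT starting at -210 and at -123 from the start site, both on the reverse strand, and 14.7% of 32851 promoters in the table hold this motif. The Xirp2 window holds a MEF2 site at -74, a motif found in 0.557% of promoters. In the Acta1 window the CArG box, present in 1.63% of promoters, starts at -73, followed by MCAT at -46. The inner Rcan1 window holds GGAAA at 3 places, -227, -193 and -163, while the outer Rcan1 window holds none; 61.3% of promoters hold these letters. These matches describe the letters in the windows.

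Levels are normalized log2 intensities of the brightest probe of each gene, and a probe counts as detected on an array at a detection p under 0.01. The 6 arrays detected 32.9% to 39.7% of probes. Apart from summed levels of marker lists, levels of different probes are not compared with each other, since probes differ in brightness. Summed levels add the intensities of all genes of a list on the array, detected or not, so the brightest probes weigh most. Heart markers checked the tissue. Of 8 on the array, Mybpc3, Myl7, Ryr2 and Tnni3 were detected on all 4 heart arrays and on neither tibialis anterior array. The others were detected in the tibialis anterior too. Actc1 read 13.43 (WT) and 13.29 (KO) there, Myl4 9.57 and 9.61, and Myh6 5.62 and 5.99. Nppa was detected on the KO muscle array alone, at 5.24. Each of these read lower on the muscle arrays than on any heart array. Xist, which silences an X chromosome in female cells, was detected on 6 arrays at 9.62 to 10.65, and the Y-linked Eif2s3y at 8.09 on the P14 WT array alone. Xist on 6 arrays, and the lack of Eif2s3y on all but the P14 WT array, go against the male label. The P14 WT array held both signals, and the P14 arrays thus differ in more than genotype. Fast muscle markers differed between WT and KO hearts. At P14, 10 of 11 detected markers were higher in the KO, 8 of them at least 2-fold, against 0.236% of all detected genes. Tnnt3, Actn3, Myh1 and Myh4 entered this list through the KO array alone, which all but fixed their direction. Myh1, counted among the 8, was at least 1.52-fold higher as a lower bound. The largest difference was that of Tnnc2, which read 9.52 in the KO and 5.28 in the WT. The summed level was 13.65 against 13.00 in log2, of which Ckm alone read 12.98 and 12.84.

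**Figure D1:**
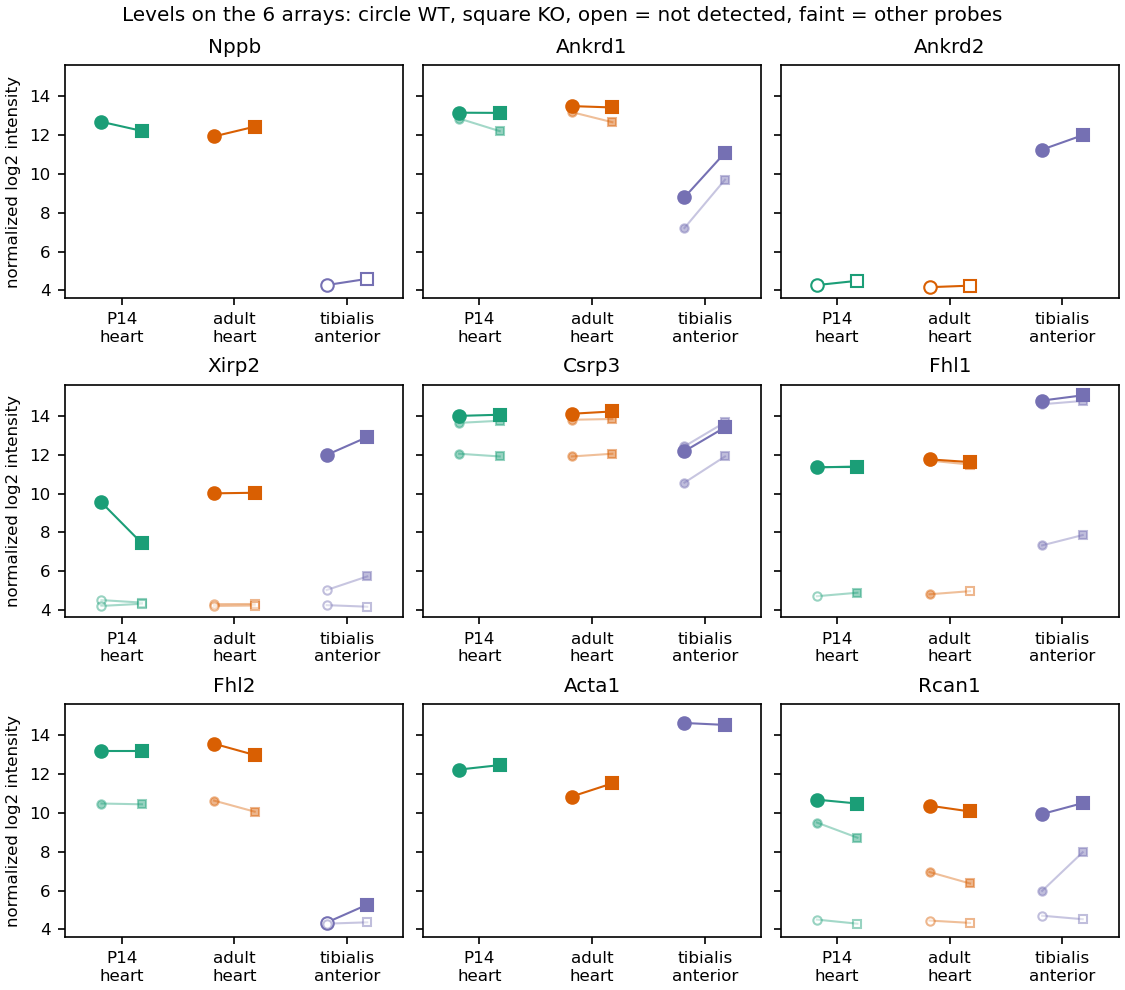
Normalized log2 intensity (vertical axis) of each detected and undetected probe on the 6 arrays, by setting, with WT as circles and KO as squares joined by a line; open symbols were not detected and faint symbols are the other probes of a gene. Ankrd1, Csrp3 and Xirp2 stand higher on the KO than on the WT array of the tibialis anterior, and Xirp2 stands lower on the KO array of the P14 heart.

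The largest genotype difference among the 9 genes was in the tibialis anterior. Ankrd1, a nuclear and titin-bound ankyrin repeat protein induced by stretch, was 4.95-fold higher in the KO muscle, and the Z disc protein gene Csrp3 was 2.35-fold higher. Xirp2, Ankrd2 and Rcan1 were higher by 0.92, 0.75 and 0.56 in log2, and Fhl2 was detected in the KO alone. In the hearts Xirp2 was 4.32-fold lower in the KO at P14, and none of the genes differed by 2-fold in the adult.

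Ankrd1 read 8.80 on the WT and 11.10 on the KO array of the tibialis anterior. In the hearts it read 13.16 (WT) and 13.15 (KO) at P14, and 13.50 and 13.43 in the adult. The KO muscle thus lay between the WT muscle and the hearts. The difference was 2.31 in the tibialis anterior, with a bead standard error of 0.07 that covers the reading of the arrays only, against -0.01 and -0.07 in the hearts. It ranked at percentile 99.7 of the 9112 genes detected in that pair. The second Ankrd1 probe read 7.22 on the WT and 9.71 on the KO muscle array, a difference of 2.49. In the hearts this probe gave lower KO readings, -0.65 at P14 and -0.52 in the adult, where the brightest probe gave next to no difference.

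Ankrd2, the ankyrin repeat relative of Ankrd1 found mainly in skeletal muscle and bound to titin, was detected in the tibialis anterior alone. It read 11.26 in the WT and 12.00 in the KO muscle, 1.68-fold apart. On the 4 heart arrays it lay between 4.17 and 4.50 and was not detected. Ankrd23, the other member of this family and not one of the 10 genes, differed by -0.34 in the muscle pair.

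Csrp3 encodes muscle LIM protein, which links the Z disc to stretch signalling and whose loss causes dilated cardiomyopathy in mice. Its level was 12.18 in WT and 13.41 in KO tibialis anterior, a difference of 1.23. The 2 other Csrp3 probes gave 1.24 and 1.35 in the same pair, so the 3 probes had the same direction and nearly the same size. In the hearts Csrp3 read 14 (WT) and 14.06 (KO) at P14 and 14.11 and 14.23 in the adult. Its heart differences by the 3 probes lay between -0.14 and 0.13.

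Xirp2, a Xin protein, binds and stabilises actin at the intercalated disc of the heart and at the tendon junction of skeletal muscle. It read 11.99 in the WT and 12.91 in the KO tibialis anterior, and 10.01 and 10.04 in the adult hearts. In the P14 hearts it read 9.54 in the WT and 7.43 in the KO, so the P14 KO array stood lowest of the 6. That difference of -2.11 ranked at percentile 0.1 of 10163 genes detected at P14. Of the other Xirp2 probes, 1 was detected on the KO tibialis anterior array only, at 5.73, and 1 on no array, so no second probe reads Xirp2 in the hearts.

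Fhl1 and Fhl2 encode proteins built of LIM domains, which bind titin and signalling kinases at the sarcomere. Fhl1, the form of skeletal muscle, read 14.79 (WT) and 15.06 (KO) in the tibialis anterior, 11.36 and 11.37 in the P14 heart, and 11.76 and 11.62 in the adult heart. These differences by the brightest probe lay between -0.13 and 0.27. The 2 other probes gave 0.17 and 0.53 in the tibialis anterior, and 1 of them -0.21 in the adult heart. Fhl2, the form of the heart, read 13.18 on both P14 arrays, and 13.57 (WT) and 12.99 (KO) in the adult. The adult heart difference of -0.58 was read as -0.57 by the second probe. In the tibialis anterior Fhl2 was detected on the KO array alone, at 5.28, against 4.36 on the WT array. As that signal is just above the lowest detected one, the KO muscle is at least 1.03-fold higher and the difference of 0.91 rests on an undetected value. The second Fhl2 probe was detected on neither muscle array, at 4.30 (WT) and 4.37 (KO). Fhl2 is the only 1 of the 10 genes on chromosome 1, at chr1:43123071-43198343, the chromosome of Dnm3 (chr1:161982450-162478321).

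Acta1, skeletal alpha-actin, builds the thin filament of adult limb muscle and is re-expressed in the overloaded heart. It read 14.64 (WT) and 14.54 (KO) in the tibialis anterior. In the hearts the KO read higher, 12.47 against 12.24 at P14 and 11.53 against 10.85 in the adult, differences of 0.23 and 0.68. In the same adult hearts 4 of 6 detected fast muscle markers were higher in the KO, and 3 of them passed 2-fold (1.27% of all detected genes). Pvalb, 1 of the 4, was detected on the KO array alone, at least 1.54-fold higher, which all but fixed its direction. The summed level of that list was 13.16 against 13.08, of which Ckm alone read 12.90 against 13.00. Tnni2 read 8.78 against 5.69 there, and Actn3, Myh1, Myh4, Tnnc2 and Tnnt3 were detected on neither array. Airway and lung markers were at least 2-fold lower in the adult KO heart in 3 of 3 detected, against 0.516% of all detected genes (summed level 12.94 to 11.75). At P14, 8 of 11 fast muscle markers were at least 2-fold higher in the KO (0.236% of all detected genes). The part of these markers in the heart differences at either age was not tested.

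Nppb encodes brain natriuretic peptide, the hormone released by stretched heart muscle. It read 12.69 in the WT and 12.22 in the KO heart at P14, a difference of -0.46. In the adult hearts it read 11.94 in the WT and 12.44 in the KO, a difference of 0.51. The 2 ages thus had opposite signs, and Nppb was not detected in the tibialis anterior of either genotype, at 4.28 and 4.60.

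Rcan1 encodes a feedback inhibitor of the phosphatase calcineurin and is itself a target of calcineurin and NFAT. By its brightest probe it read 9.95 (WT) and 10.51 (KO) in the tibialis anterior, 10.69 and 10.49 in the P14 heart, and 10.38 and 10.08 in the adult heart. The second detected probe had the same signs with larger differences. It read 5.99 in the WT and 7.98 in the KO muscle, 9.51 and 8.73 in the P14 hearts and 6.96 and 6.37 in the adult hearts. These differences are 2.0, -0.78 and -0.58, against 0.56, -0.20 and -0.30 by the brightest probe. Both probes are annotated to the same transcript, and the third Rcan1 probe was detected on no array.

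**Figure D2:**
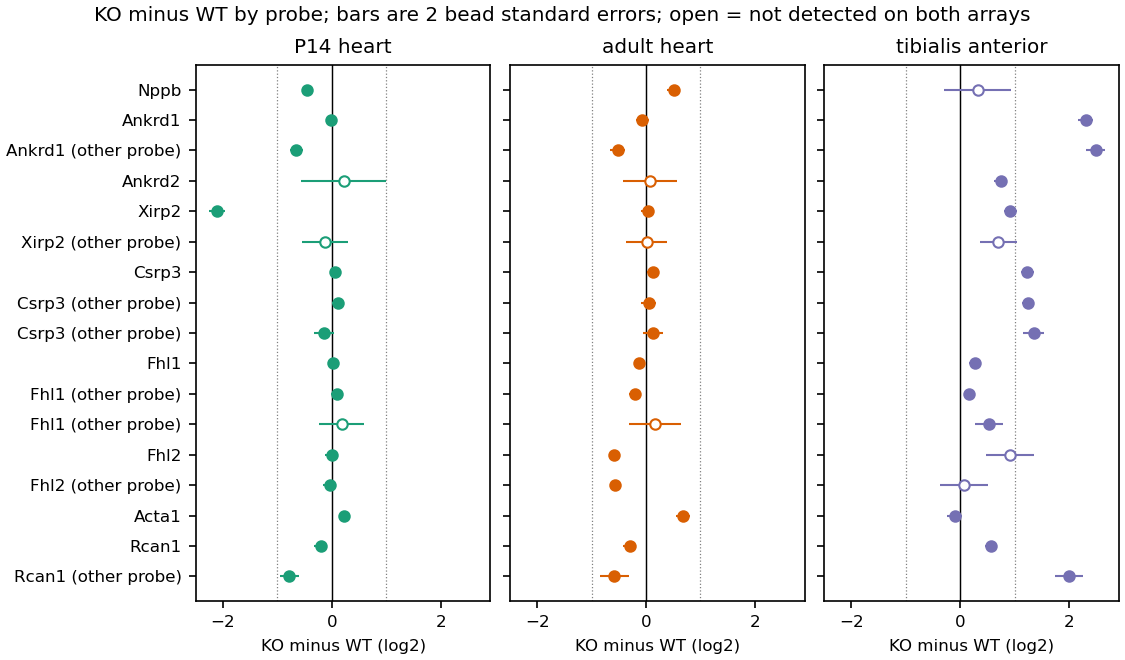
KO minus WT in log2 (horizontal axis) for each of the 17 detected probes in the 3 settings; bars are 2 bead standard errors of the reading, open points were undetected on at least 1 of the pair's arrays, and dotted lines mark 2-fold. The probes of Ankrd1 and Csrp3 have like differences in the tibialis anterior, while those of Rcan1 differ, 0.56 and 2.0.

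As a group, 8 of the 9 genes were detected in each pair, Ankrd2 not being detected in the hearts and Nppb not in the muscle. In the tibialis anterior 7 of 8 were above 0 in the KO, where 46.2% of all detected genes were, with a median of 0.83 against -0.02 for all. Among the 7, Fhl2 entered this pair through the KO array alone, which all but fixed its direction. Its difference of 0.91, resting on an undetected value, also enters the median. At least 2-fold higher were 2 of 8, Ankrd1 and Csrp3, against 2.48% of the 9112 detected genes, and 0 were 2-fold lower, against 0.472%. At P14, 4 of 8 were above 0 (50.1% of all genes), the median was 0.00, and 1, Xirp2, was at least 2-fold lower (0.63% of 10163 genes). None was 2-fold higher there (0.236%). In the adult hearts 4 of 8 were above 0 (45.8%), the median was -0.02 against -0.04, and 0 passed 2-fold in either direction (1.27% higher and 0.516% lower among 10080 genes). These are values of 1 array a group with no test.

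**Figure D3:**
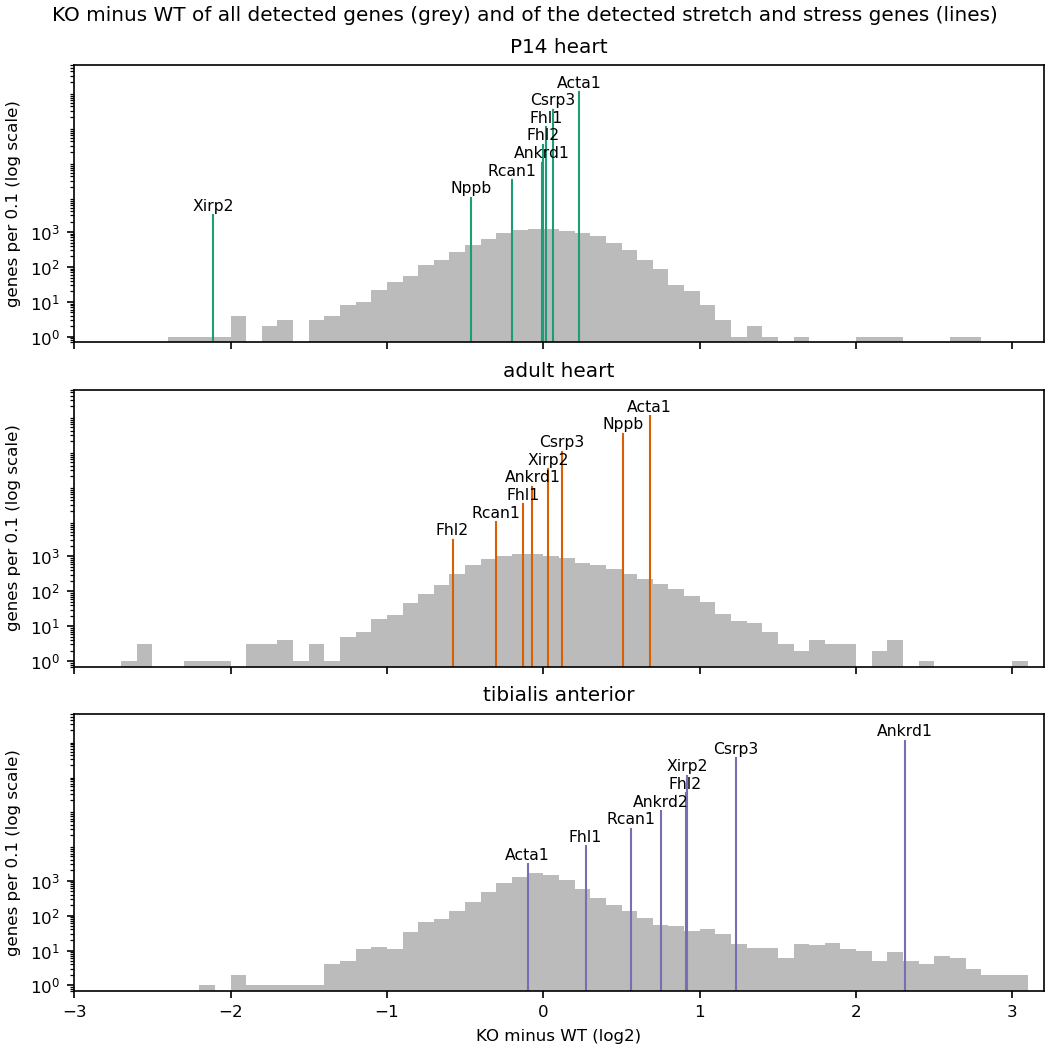
Number of genes per 0.1 of KO minus WT in log2 (grey bars, log scale) for all genes detected in each setting, with the detected stretch and stress genes as labelled lines whose heights only separate the names; a few genes lie outside the drawn range. In the tibialis anterior the lines run from -0.10 (Acta1) to 2.31 (Ankrd1), and at P14 Xirp2, at -2.11, is the only one beyond 2-fold.

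Whether the genotype difference in the muscle departed from that in the hearts was tested with limma over 10271 genes detected on at least 2 arrays. The model held setting, genotype and an extra genotype term for the tibialis anterior, which leaves 1 residual degree of freedom, the difference between the P14 and adult hearts. Ankrd1 was the only 1 of the 9 genes called, with a difference of 2.35 (SE 0.23, 95% interval 1.83 to 2.87, Benjamini-Hochberg adjusted p = 0.0206). It ranked 3rd of 10271 genes by p, and 30 genes, 0.292%, were called in all, 0.263% higher and 0.0292% lower. The second Ankrd1 probe, in a fit of every probe on its own, gave 3.07 (SE 0.24, adjusted p = 0.0105). With the prior variance taken from the fit on 2 residual degrees of freedom, an alternative added after the data were seen, Ankrd1 was no longer called (adjusted p = 0.0845), and neither was any other gene. Over 10 alternatives it was called under 9, with differences of 2.26 to 2.71 and adjusted p from 2.46e-11 to 0.0845. The smallest came with median centring, where the p-values of this fit hardly reflect a gene's own spread.

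The other genes were not called in this test. Csrp3 differed by 1.14 (95% interval 0.58 to 1.70, adjusted p = 0.203) and Fhl2 by 1.20 (0.55 to 1.86, adjusted p = 0.278), the latter resting on an undetected value. The second Fhl2 probe, undetected on both muscle arrays, gave 0.37 (SE 0.30) in the fit of single probes. For Rcan1 the brightest probe gave 0.81 (0.30 to 1.32, adjusted p = 0.36), whereas the second probe gave 2.68 (SE 0.28, adjusted p = 0.0228) in the fit of single probes. With the mean of its detected probes Rcan1 passed the threshold as well, at 1.75 (adjusted p = 0.00698). Xirp2 had the widest interval, 0.34 to 3.58 around 1.96 (adjusted p = 0.418), because its P14 and adult heart differences were -2.11 and 0.03. With arrays centred on their medians Xirp2 passed the threshold (1.93, adjusted p = 1.77e-07). Its P14 heart difference was still -1.96 there and its estimate hardly moved. That p-value thus hardly reflects the spread of Xirp2 itself between the hearts, and the pass is no firmer evidence than the main fit. The estimates for Ankrd2 (0.60), Fhl1 (0.33), Nppb (0.30) and Acta1 (-0.55) had intervals that included 0, those of Ankrd2 and Nppb resting on undetected values.

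A genotype difference common to the 3 settings was called for 0 of the 9 genes (limma with setting as a term, 2 residual degrees of freedom). In all 7 of 10271 genes, 0.0682%, were called, 0.0195% higher and 0.0487% lower. At an unadjusted p under 0.05 the counts were 0 of 9 and 995 of 10271. The smallest p among the 9 were those of Csrp3 (0.47, SE 0.22, unadjusted p = 0.069, adjusted p = 0.53) and Ankrd2 (0.35, SE 0.17, adjusted p = 0.545). For Ankrd1 the estimate was 0.74 with an interval of -0.19 to 1.68, and without the tibialis anterior arrays it was -0.04. Xirp2 was estimated at -0.39 (-1.45 to 0.68), and at 0.47 without the P14 arrays.

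**Figure D4:**
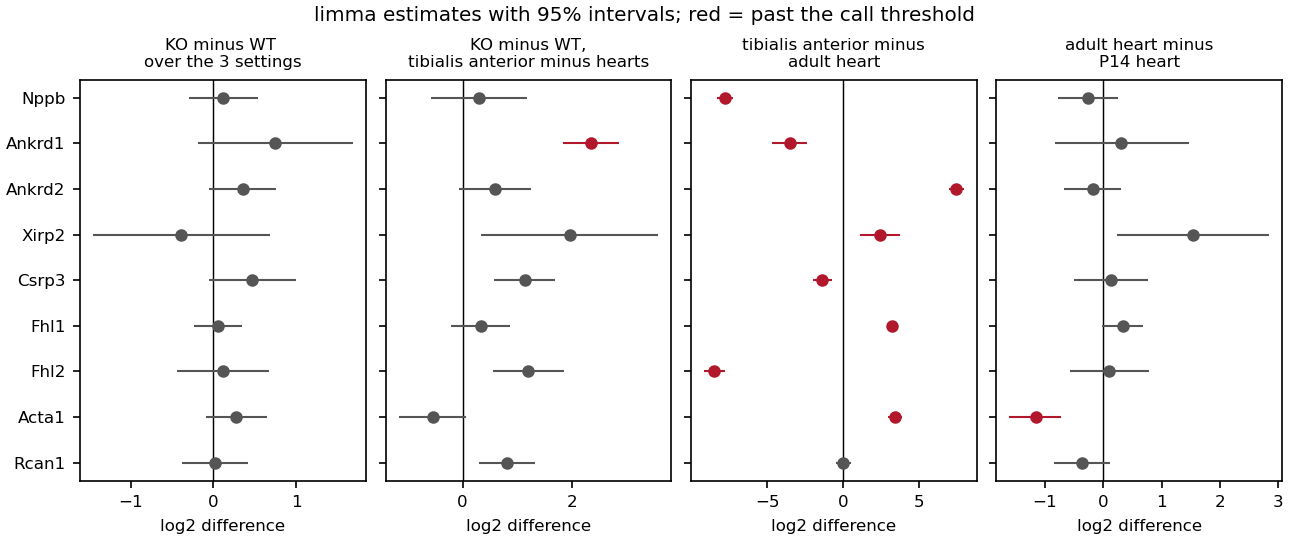
Estimates from limma (log2 difference, horizontal axes on different scales) with 95% intervals for the 9 genes in 4 comparisons; red points passed the call threshold. Ankrd1 is the only red point among the genotype comparisons, at 2.35, while 8 genes are red in the comparison of tibialis anterior with adult heart.

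Most of these genes separated the tissues. Between tibialis anterior and adult heart, with the WT and KO arrays of a setting standing in for replicates, 8 of 9 were called at an adjusted p under 0.05 and 2-fold, against 19.1% of 10271 genes. Higher in the muscle were 4 (8.46% of all genes) and higher in the heart 4 (10.6%). Over all genes that split was 869 to 1092, and 651 to 1542 with arrays centred on their medians. Of the 8 called, Ankrd2 was detected on the muscle arrays alone and Nppb on the heart arrays alone, which all but fixed their directions. Fhl2 was undetected on the WT muscle array. Among genes detected on all arrays, 5 of the 6 tested were called. In a bulk tissue, fewer cells of a type and less RNA per cell cannot be told apart.

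The 4 genes higher in the tibialis anterior were Ankrd2, Acta1, Fhl1 and Xirp2. Ankrd2 was at least 109-fold higher, being undetected in the heart (adjusted p = 1.8e-07). Acta1 was 10.6-fold higher (3.40, SE 0.19, adjusted p = 6.08e-06) and Fhl1 9.40-fold higher (3.23, SE 0.15, adjusted p = 2.24e-06). Xirp2 was 5.37-fold higher (2.42, SE 0.57, adjusted p = 0.00967).

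Higher in the adult heart were Fhl2, Nppb, Ankrd1 and Csrp3. Fhl2, undetected on 1 of the 2 muscle arrays, was at least 261-fold higher and Nppb, undetected on both, at least 126-fold higher (adjusted p = 3.89e-07 and 1.84e-07). Ankrd1 was 11.4-fold higher (-3.52 for muscle minus heart, SE 0.50, adjusted p = 0.000883). That mean joins unlike values, -4.70 between the WT arrays and -2.33 between the KO arrays. Csrp3 was 2.59-fold higher in the heart (adjusted p = 0.00478), with -1.93 between WT and -0.82 between KO arrays. Its 2 other probes gave -0.77 and -0.75 and were not called. Rcan1 differed by 0.00 (95% interval -0.49 to 0.49).

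With age, from P14 to adult heart, 1 of 9 genes was called, against 6.45% of 10271 genes. Acta1 fell by 1.16 (SE 0.19, adjusted p = 0.00689), with -1.39 between the WT and -0.94 between the KO arrays. Over all genes 3.63% rose and 2.81% fell, 373 and 289 genes, or 258 and 513 with median centring. The second Rcan1 probe fell by 2.45 (SE 0.55, adjusted p = 0.0222) in the fit of single probes, against -0.36 (adjusted p = 0.301) by the brightest. Xirp2 was estimated at 1.54 higher in the adult (0.24 to 2.84, adjusted p = 0.114), from 0.47 between the WT and 2.61 between the KO hearts. Nppb had -0.75 between the WT and 0.22 between the KO hearts.

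Lists of partners of these genes, chosen with earlier results known, showed few differences of 2-fold between KO and WT. In the list of stretch responsive and serum response factor or YAP linked genes, 14 of 17 genes on the array were detected in the tibialis anterior, 3 of them at least 2-fold higher (2.48% of all detected genes) and 5 above 0 (46.2% of all), with a median of -0.09. These 3 were Mustn1, a small nuclear protein of the musculoskeletal system (11.72 to 14.22), the small heat shock protein gene Hspb7 (9.51 to 11.40) and the immediate early gene Egr1 (7.83 to 8.91). Mustn1 also passed the test against the hearts (1.75, SE 0.24, adjusted p = 0.041). Hspb7 was higher in the adult KO heart too, at 11.49 against 9.94. Ccn2 and Ccn1, matrix proteins whose genes are targets of YAP, differed by 0.67 and -0.52 in the muscle.

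The other lists held no gene past 2-fold in the tibialis anterior, where 46.2% of all detected genes were above 0 and the median was -0.02. Of 12 detected genes of calcineurin and NFAT signalling 3 were above 0 there (median -0.16), among them Myoz1 and Myoz2, which bind calcineurin at the Z disc, at 0.17 and 0.21. Of 9 detected ankyrin repeat partners and titin spring genes 3 were above 0 (median -0.05). Titin itself, Ttn, differed by -0.14 and Tcap by -0.05. Actins and thin filament genes were above 0 in 1 of 9 (median -0.13), and LIM and Z disc genes in 9 of 14 (median 0.05). Of 8 detected Xin partners, 5 were above 0 (median 0.13), led by the Xin-binding filamin gene Flnc at 0.78.

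At P14, 1 of 10 detected Xin partners and intercalated disc genes was above 0 in the KO heart (50.1% of all genes), with a median of -0.28. Vinculin (Vcl), which anchors actin at the membrane, differed by -0.84 and beta-catenin (Ctnnb1) by -0.61. In the adult hearts, where Xirp2 differed by 0.03, 2 of 10 were above 0 (45.8% of all genes; median -0.18), with Vcl at -0.50 and Ctnnb1 at -0.44. The only gene of the partner lists past 2-fold at P14 was the fast muscle actinin Actn3, detected on the KO array alone and at least 4.58-fold higher. Of 5 detected natriuretic peptide system genes, 1 was above 0 at P14 and 2 in the adult heart. Nppa, the atrial peptide, differed by -0.20 and -0.06, beside -0.46 and 0.51 for Nppb. No gene of these lists was called for a common genotype difference.

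Marker lists of cell types went different ways in the muscle pair. There 46.2% of all detected genes were above 0 and 2.48% at least 2-fold higher. Of 4 detected endothelium markers 0 were above 0 (median -0.35), and of 3 smooth muscle markers 1 was (median -0.24). Of 11 fast muscle markers 2 were above 0 (median -0.06), and of 6 fibroblast markers 4 were (median 0.09). No marker of these lists passed 2-fold. Of 7 slow muscle markers on the array 5 were detected in the muscle pair, 4 were higher in the KO and 2 passed 2-fold, while the summed level was 13.66 in the WT and 13.38 in the KO. Tnnc1, Tnnt1 and Atp2a2 read 9.84, 9.44 and 9.37 in the KO against 8.01, 8.27 and 8.44. Myl3, the brightest of the list in this pair, differed by -0.63 (13.49 to 12.85), and Myh7 and Tnni1 were not detected. Regenerating muscle markers were above 0 in 6 of 6 (summed level 9.66 to 10.07); Chrng was detected in the KO alone, at 5.68 against 4.41, and at least 1.37-fold higher. All 10 liver markers were at least 2-fold higher (10.58 to 13.41). So were 3 of 3 detected adipocyte markers (7.72 to 9.74), of which Cidec was detected in the KO alone (at least 3.47-fold). The part of these markers in the differences of Ankrd1, Csrp3 and Rcan1 was not tested. Of 4 detected heart markers 3 were above 0 (median 0.15). Myh6 read 5.99 in the KO against 5.62, and Nppa was detected in the KO alone, at 5.24 against 4.99. The summed level of the heart list was 13.55 in the WT and 13.42 in the KO muscle, of which Actc1 alone read 13.43 and 13.29. Mybpc3, Myl7, Ryr2 and Tnni3 were detected on neither array, nor was Nppb, which is not on the marker list.

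The gene nearest to each in profile was taken as the named gene with the smallest root mean square difference over the 6 arrays, after centring each gene on its mean. For Nppb it was Pln, which encodes the calcium pump inhibitor phospholamban (0.32 in log2), and for Fhl2 the heart calcium channel gene Ryr2 (0.35). For Ankrd2 it was Myoz3 (0.18), for Fhl1 Epdr1 (0.13) and for Acta1 Gadd45g (0.32). For Ankrd1 it was BC034090 (0.53) and for Xirp2 Abcb4 (0.51). Rcan1 and Csrp3 were nearest to Irf8 (0.05) and Snx33 (0.18). The distance grows with a gene's own spread over the arrays, an SD of 1.89 for Ankrd1, 1.93 for Xirp2, 0.78 for Csrp3 and 0.28 for Rcan1. All 9 profiles were taken over the same 6 arrays.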

How the data were processed

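Tibialis anterior and heart RNA of 6 pools of mice was measured on Illumina bead arrays. For each probe the authors deposited a bead intensity with its standard error, a bead count and a detection p-value, per the file headers. The authors also deposited processed intensity values, whose 6 medians were 54.3 to 54.4, and no source used here names their software. A median of 43 or 44 beads read a probe, and precision rests on 1 array a group.

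The scanner intensities were corrected with normexp (offset 16, controls inferred from detection p-values) in limma 3.58.1 (R 4.3.3), quantile normalized and put on the log2 scale. Of 45281 probes 34885 had 1 symbol, 18 several and 10378 none; 0 symbols changed against RefSeq GRCm38.p6. A gene took its brightest probe. Where 1 array lacked detection, folds are lower bounds against the lowest detected signal. limma (lmFit, eBayes with trend, Benjamini-Hochberg) was fitted over 10271 genes and tested on simulated data; with no separate samples of a group, its p-values measure the spread between settings or genotypes. Figures used matplotlib 3.10.9. All 10 genes were named, with every probe, plus list genes past 2-fold, at most 3 a list and pair, and the nearest gene in profile. Other list genes given with values, and the sex-linked genes, were chosen after their values were seen. Members and lists were chosen with earlier results of these data known. In the lists, older symbols were matched through RefSeq synonyms. Alternatives covered background, normalization, offset, probe rule, filter, variance model and leaving out a setting.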

Additional observations from a re-analysis of the deposited data

Results flagged for a closer look

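A total of 6 values stood out because the difference between KO and WT arrays was unlike in a pair of settings. For Ankrd1 the difference between tibialis anterior and hearts, 2.35, passed its test (limma, adjusted p = 0.0206), and lost it under 1 added alternative (adjusted p = 0.0845). The rest had opposite directions in a pair of settings, each beyond 2 bead standard errors, which cover the reading of the arrays and not the spread between animals. With 1 array a group this does not show that the effect of genotype differed, and the P14 arrays also differed in the Y-linked Eif2s3y. Nppb differed by 0.97 more in the adult than in the P14 heart, and this was not tested. Xirp2 differed by 3.03 more in the tibialis anterior than in the P14 heart. Fhl1 differed by 0.40 more in the tibialis anterior than in the adult heart. Rcan1 differed in the tibialis anterior by 0.76 more than in the P14 heart and by 0.86 more than in the adult heart. These single pairs of settings were not tested; against the mean of both hearts Xirp2, Fhl1 and Rcan1 had adjusted p of 0.418, 0.641 and 0.36 (limma).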

How the results depend on the processing

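No genotype count among the 9 genes over the 3 settings moved from 0 under 12 alternatives. Counts past 2-fold stayed at 1 (P14) and 0 (adult heart) under 6 alternatives each, and in the tibialis anterior were 2, or 3 with the mean of detected probes. For tibialis anterior against hearts, 2 genes were called with median centring and with the mean of detected probes, and 0 with the prior of the fit on 2 residual degrees of freedom, against 1. For tibialis anterior against adult heart, 5 were called among genes detected on all arrays, where 6 were tested, against 8. From P14 to adult, the count was 2 without the tibialis anterior arrays, adding Xirp2 (1.54, adjusted p = 0.0328).

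Signs turned only for estimates that were not called. Over the 3 settings Fhl2 (0.11) was -0.03 without background correction, by the authors' processed values and with the mean of probes, -0.05 with an offset of 50 and -0.29 without the tibialis anterior arrays. Leaving out 1 setting at a time gave -0.29 to 0.46 for Fhl2, -0.04 to 1.15 for Ankrd1, -0.06 to 0.14 for Fhl1 and -0.25 to 0.18 for Rcan1, each lowest without the tibialis anterior. It gave -1.04 to 0.47 for Xirp2 (highest without P14) and -0.07 to 0.41 for Nppb (lowest without adult hearts). With median centring Rcan1 was -0.01 between tissues, and Csrp3 and Fhl2 were -0.05 and -0.15 with age; Fhl2 was -0.01 with the mean of probes. The cause was not tested. Csrp3 lost its tissue call with the mean of detected probes (-0.96), being under 2-fold. Over all genes, calls of the tibialis anterior against hearts were 27 higher and 3 lower, 99 and 24 with median centring, and 49 and 6 without background correction. Over the 3 settings they were 2 and 5, 11 and 7 with median centring, and 1 and 3 without background correction. With age they were 373 and 289, and 236 and 162 without background correction. No paired analysis was possible because each group holds 1 array and the labels number no replicates; the setting term already compares KO with WT within each setting. Signals near background limit Fhl2 and Nppb in muscle and Ankrd2 in heart.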
